A study of Mus musculus with 32 samples.

Results

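The genes described here are 31 markers and regulators of B lymphocytes, taken from a list of symbols that mark the B cell lineage or act in it. All 31 were found by symbol among the 55359 Ensembl gene identifiers of the deposited bone and gingiva tables. All 31 passed the filter on low counts in bone, where 21205 genes were tested. In gingiva 29 passed among 20143 genes, and Cr2 and Pax5 did not. The list was not drawn from these measurements by a threshold, but it was put together with earlier results of these data known.

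Poly(A) RNA from bone and from gingiva of male wild type C57BL/6J mice, an inbred strain, aged 9 weeks when treated, was sequenced. The 4 groups were untreated control mice (Co), mice with a silk thread tied round the left upper second molar (Li), mice whose same tooth was raised with composite resin so that it bears more of the bite (Tra) and mice with both (LiTra). The thread is a standard way to induce periodontitis, and the resin overloads the tooth. Each group had 4 libraries per tissue, 32 in all. The labels give no time between treatment and sampling, do not say whether samples were pooled and do not tie the 2 tissues of 1 animal together. The p-values therefore measure the spread between these libraries. The question behind the comparisons, from the title of the series, is how an overloaded bite changes gene expression in bone when periodontitis is present.

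B lymphocytes arise in bone marrow from precursors that rearrange the immunoglobulin genes, and maturing cells carry an antigen receptor made of surface immunoglobulin and the signalling chains CD79A and CD79B. Marrow also holds mature B cells that have returned from the blood, recognised by IgD, CD23 (Fcer2a), CD21 (Cr2), the BAFF receptor (Tnfrsf13c) and CXCR5. In periodontitis B cells and plasma cells are known mainly from the inflamed gum, and B lineage cells of marrow are known as a source of factors that act on osteoclasts.

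Levels are CPM, estimated counts scaled to a common library size by TMM, and libraries are listed in the order 1 to 4 of each group. Fold changes are log2 ± SE from edgeR's quasi-likelihood test with 4 libraries per group, and a gene was called where the p adjusted over all genes tested (Benjamini-Hochberg) was under 0.05. Library totals ran from 38163979 to 70793037 counts in bone and from 36913075 to 50740393 in gingiva. Transcripts of nasal glands took 50.9% of the counts in LiTra 1, 47.5% in Co 3, 29.1% in Tra 3, 24.2% in Li 2, 14.9% in Co 4 and 7.01% in Tra 1, all from bone. Genes of osteoblasts were higher in Co bone than in Co gingiva for 8 of 8 listed, and keratins and loricrin were higher in Co gingiva for 8 of 8. In bulk tissue, fewer cells of a type and less RNA per cell cannot be told apart.

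B lymphocyte genes fell in bone with the ligature and with both treatments together. In LiTra, 25 of the 31 fell against Co and 0 rose, where 8.64% of all genes tested fell and 8.29% rose. Their median log2 change was -2.51, beside -0.01 for all genes. In Li, 11 of 31 fell and 0 rose where 0.849% of all genes fell and 2.66% rose, with a median of -1.60 beside -0.02. DESeq2 called 23 in Li and limma-voom 25, all lower, where 4.08% and 3.54% of all genes with an adjusted p were called lower. In Tra, 0 of 31 passed, as did 0% of all genes, although 31 of 31 had a negative log2 change with a median of -1.33 and 23 had an unadjusted p under 0.05, as did 9.54% of all genes. For all genes that median was 0.02, and 47.5% lay below 0. DESeq2 called 4 of the 31 in Tra (Cd22, Cd72, Bach2 and Tnfrsf13c), where it called 1.03% of all genes with an adjusted p, and limma-voom called 0 of the 31 and 0% of all genes. These 3 comparisons share the Co libraries.

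**Figure D1:**
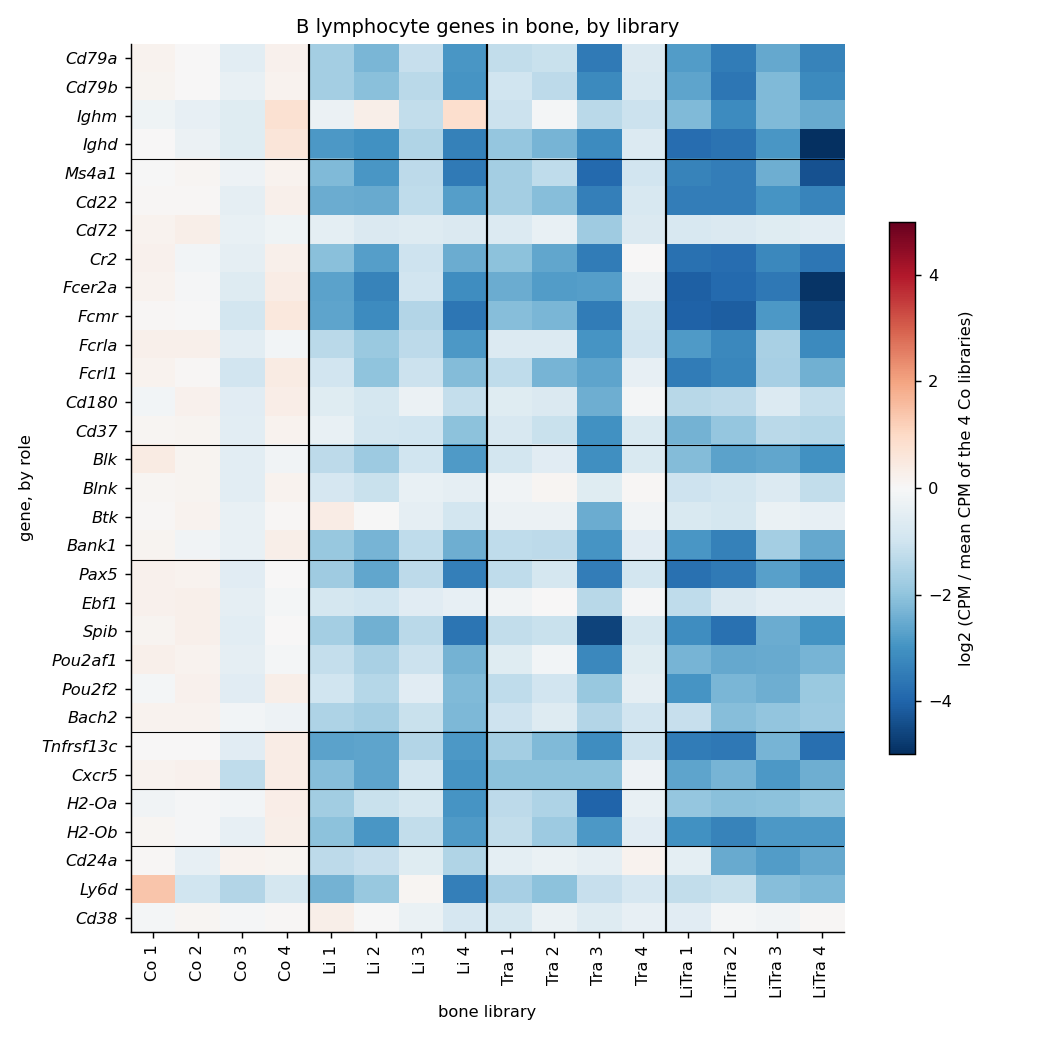
Log2 ratio of each CPM to the mean CPM of the 4 Co libraries, for 31 B lymphocyte genes (rows, by role) in 16 bone libraries (columns, by group); blue is lower and red higher than Co. Most rows are darkest blue in LiTra, Tra 3 and Li 4 are dark within their groups, and the Ighm row stays pale or red in Li.

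The size of the difference varied widely among the 31 genes. Group means in LiTra ranged from 6.09% of the Co mean for Fcer2a to 88.6% for Cd38. The order of the 4 group means was Co, Tra, Li and LiTra from high to low for 24 of 31 genes. Co was highest for 30 of 31, the exception being Ighm, which had its highest mean in Li. LiTra was lowest for 29 of 31, the exceptions being Cd72 and Cd38, which were lowest in Tra. Between neighbours in this order 0 of 31 passed for Tra and Co and 0 of 31 for LiTra and Li in edgeR, and Li was not tested against Tra. All 4 LiTra libraries lay below all 4 Co libraries for 28 of 31 genes, where 13.9% of all genes tested did so. For Li that held for 21 of 31 (5.57% of all genes) and for Tra for 17 of 31 (3.53%).

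Single libraries weighed on these counts. Without 1 bone library the number that fell in LiTra ran from 22 to 28. For Li it dropped to 1 when Co 4 or Li 4 was left out, 2 for Li 1 or Li 2, 4 for Co 1, 5 for Co 2 and 7 for LiTra 2, and it rose to 20 when Tra 3 was left out. Without the 3 libraries with the most nasal gland transcripts (Co 3, Tra 3 and LiTra 1) it was 24 for Li, 28 for LiTra and 0 for Tra. Scaled by library totals alone, 0 passed for Li and for LiTra, while the medians stayed at -1.49 and -2.51. Co 3 was the lowest Co library for 27 of 31 genes, Tra 3 the lowest Tra library for 26 and Li 4 the lowest Li library for 25, and Li 3 the highest Li library for 24.

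**Figure D2:**
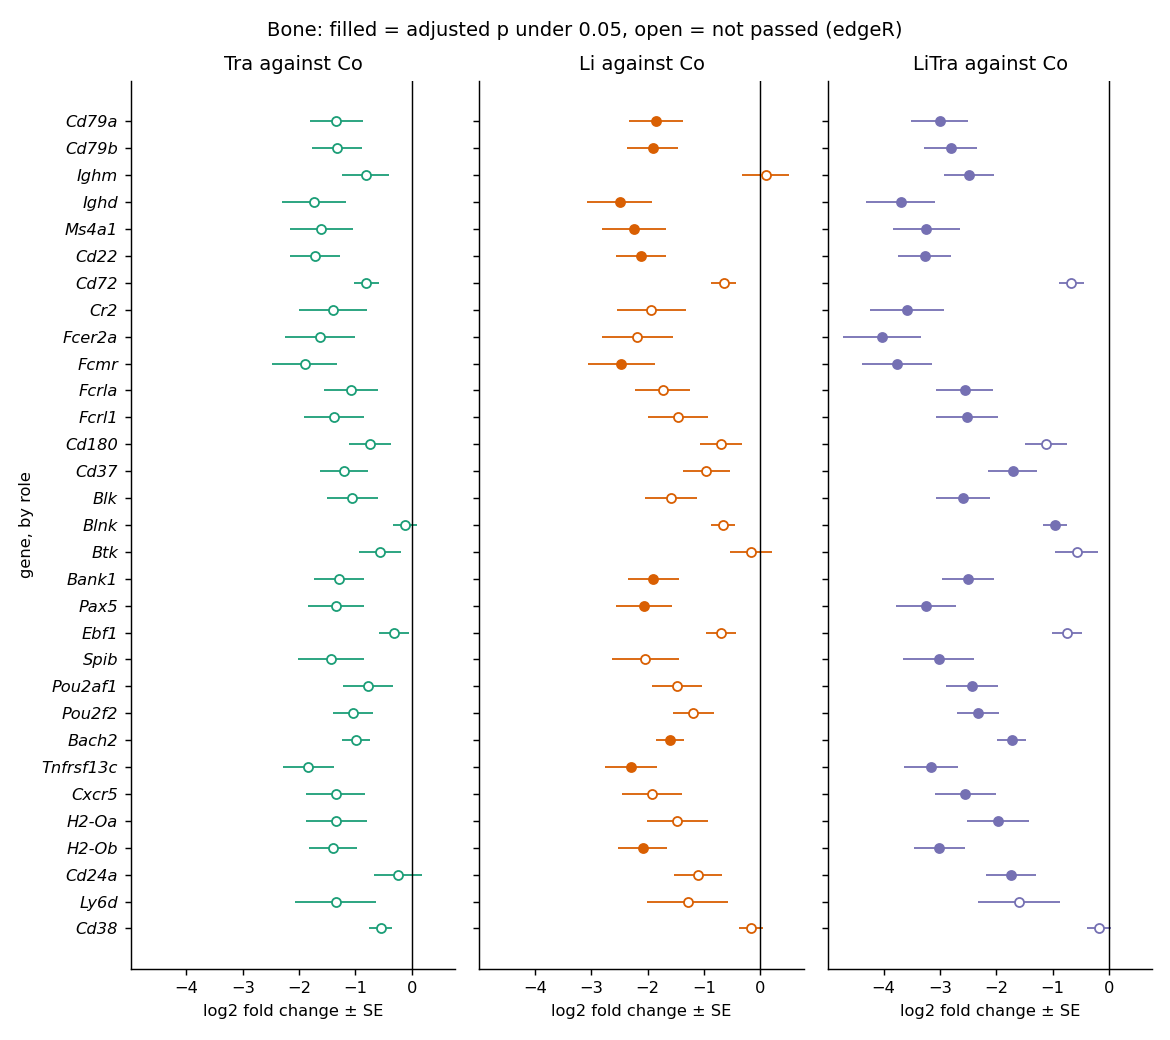
Log2 fold change ± SE (edgeR, 4 libraries per group) of 31 B lymphocyte genes in bone for Tra, Li and LiTra against Co; filled points passed an adjusted p of 0.05. The filled points number 0 for Tra, 11 for Li and 25 for LiTra, and all lie left of 0.

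Promoters from RefSeq (GRCm38.p6, 250 bases before to 50 after the start) were at hand for 23 of the 31 genes, 27 promoters in all. They were searched on both strands for 3 motifs of factors on the list or of their families: the octamer ATGCAAAT, the EBF site (TCCC and GGGA with 2 bases of any kind between them) and the ETS site GAGGAAGT, none of which overlapped another here. The octamer was found in 1 of 27 promoters (3.7%, and 1.74% of all 32851 promoters), the EBF site in 1 (3.7%, 0.904%) and the ETS site in 3 (11.1%, 3.2%). The 5 promoters with a match are printed 5′ to 3′ on the strand of the gene, with the match in capitals, since they show where the letters lie in genes that fell (Cd22, Blnk, Cd37 and Fcrl1) and in one that did not pass (Cd72). The ETS and octamer matches lie on the opposite strand and so appear as ACTTCCTC and ATTTGCAT. Positions are Cd22 chr7:30878979-30879278 (minus strand), Blnk chr19:40994172-40994471 (minus strand), Cd37 chr7:45238790-45239089 (minus strand), Fcrl1 chr3:87376137-87376436 (plus strand) and Cd72 chr4:43454577-43454876 (minus strand), all on GRCm38.p6, whereas the counts were made on GRCm39.
Cd22: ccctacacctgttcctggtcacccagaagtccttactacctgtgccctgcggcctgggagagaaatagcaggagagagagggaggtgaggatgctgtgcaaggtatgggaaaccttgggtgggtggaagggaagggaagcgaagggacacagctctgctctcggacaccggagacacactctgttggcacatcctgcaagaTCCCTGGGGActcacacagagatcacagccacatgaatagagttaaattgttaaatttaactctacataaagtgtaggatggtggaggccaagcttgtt
Blnk: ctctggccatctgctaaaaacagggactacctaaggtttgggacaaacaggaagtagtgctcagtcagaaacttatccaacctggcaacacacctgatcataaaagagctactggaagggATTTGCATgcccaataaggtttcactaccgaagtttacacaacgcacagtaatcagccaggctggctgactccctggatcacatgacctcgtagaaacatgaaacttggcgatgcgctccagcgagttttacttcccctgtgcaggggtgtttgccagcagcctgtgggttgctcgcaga
Cd37: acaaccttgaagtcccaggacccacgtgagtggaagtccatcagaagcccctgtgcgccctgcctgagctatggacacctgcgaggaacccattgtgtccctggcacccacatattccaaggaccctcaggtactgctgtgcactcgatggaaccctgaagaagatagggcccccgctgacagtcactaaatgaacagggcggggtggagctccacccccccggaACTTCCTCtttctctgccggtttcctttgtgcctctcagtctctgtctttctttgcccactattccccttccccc
Fcrl1: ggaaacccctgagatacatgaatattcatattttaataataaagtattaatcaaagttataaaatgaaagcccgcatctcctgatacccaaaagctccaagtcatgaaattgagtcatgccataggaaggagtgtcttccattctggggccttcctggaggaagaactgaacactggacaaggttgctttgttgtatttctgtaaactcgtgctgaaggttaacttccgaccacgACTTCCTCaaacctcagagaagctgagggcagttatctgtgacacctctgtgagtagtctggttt
Cd72: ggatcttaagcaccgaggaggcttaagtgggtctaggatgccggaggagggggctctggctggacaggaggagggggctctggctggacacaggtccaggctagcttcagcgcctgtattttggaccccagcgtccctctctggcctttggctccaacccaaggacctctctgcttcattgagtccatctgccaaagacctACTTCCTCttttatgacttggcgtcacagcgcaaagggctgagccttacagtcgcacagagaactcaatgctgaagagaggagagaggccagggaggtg

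The EBF match of Cd22 and the ETS match of Cd72 begin 49 bases before the start, the ETS matches of Cd37 and Fcrl1 25 and 15 bases before it, and the octamer of Blnk 130 bases before it. The 3 genes with the ETS letters changed by -1.71 ± 0.43, -2.51 ± 0.55 and -0.66 ± 0.22 in bone of LiTra (Cd37, Fcrl1 and Cd72). A match is a run of letters and was not tested for binding.

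The antigen receptor genes fell in bone of LiTra for 4 of 4 and in Li for 3 of 4, where 8.64% and 0.849% of all genes fell. Cd79a (ENSMUSG00000003379.8), a signalling chain of the receptor, stood at 77.5, 71.4, 47.7 and 81.6 CPM in Co, 29.4, 32.2, 6.01 and 42.2 in Tra, 21.3, 14.4, 31.7 and 9.37 in Li and 10.1, 6.08, 11.7 and 6.80 in LiTra. Every Li and LiTra library lay below every Co library, and Tra 3 lay as low as the LiTra libraries. Cd79a changed by -1.86 ± 0.48 (adjusted p = 0.047) in Li, -1.34 ± 0.47 (adjusted p = 0.45) in Tra and -3.01 ± 0.50 (adjusted p = 0.0014) in LiTra. The call in Li was lost in 13 of 16 fits that each left out 1 bone library, and that in LiTra in 0. Its partner Cd79b stood at 64.6, 58.9, 45.1 and 66.4 CPM in Co, 29.9, 23.7, 6.42 and 33.5 in Tra, 18.1, 13.6, 23.3 and 7.55 in Li and 9.39, 4.82, 12.9 and 6.49 in LiTra. The same libraries were low, and the changes were -1.91 ± 0.45 (adjusted p = 0.033) in Li and -2.81 ± 0.47 (adjusted p = 0.0014) in LiTra.

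Ighd (ENSMUSG00000104213.6), the heavy chain of IgD that naive mature B cells carry beside IgM, stood at 58.7, 47.6, 38.1 and 87.2 CPM in Co, 15.03, 11.6, 6.56 and 36.1 in Tra, 7.97, 7.15, 20.2 and 5.64 in Li and 4.09, 4.45, 7.77 and 1.57 in LiTra. Li 3 and Tra 4 were the highest treated libraries, and the ranges of Co and of each treated group did not overlap. Ighd fell by 2.50 ± 0.58 on the log2 scale in Li (adjusted p = 0.03) and by 3.70 ± 0.61 in LiTra (adjusted p = 0.0013). Ighm, the heavy chain of IgM, stood at 432, 382, 331 and 860.3 CPM in Co, 241, 463, 194 and 238 in Tra, 410.0, 621, 214 and 895 in Li and 108, 56.6, 108 and 87.1 in LiTra. It did not follow Ighd in Li, where Li 4 was higher than all 4 Co libraries and Li 2 higher than 3 of them. The changes of Ighm were 0.09 ± 0.42 (adjusted p = 0.94) in Li, with a 95% interval of -0.80 to 0.99, -0.82 ± 0.42 (adjusted p = 0.56) in Tra and -2.48 ± 0.44 (adjusted p = 0.0018) in LiTra. Reads of Ighm and Ighd come from 1 shared primary transcript and could have been split between them in counting.

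**Figure D3:**
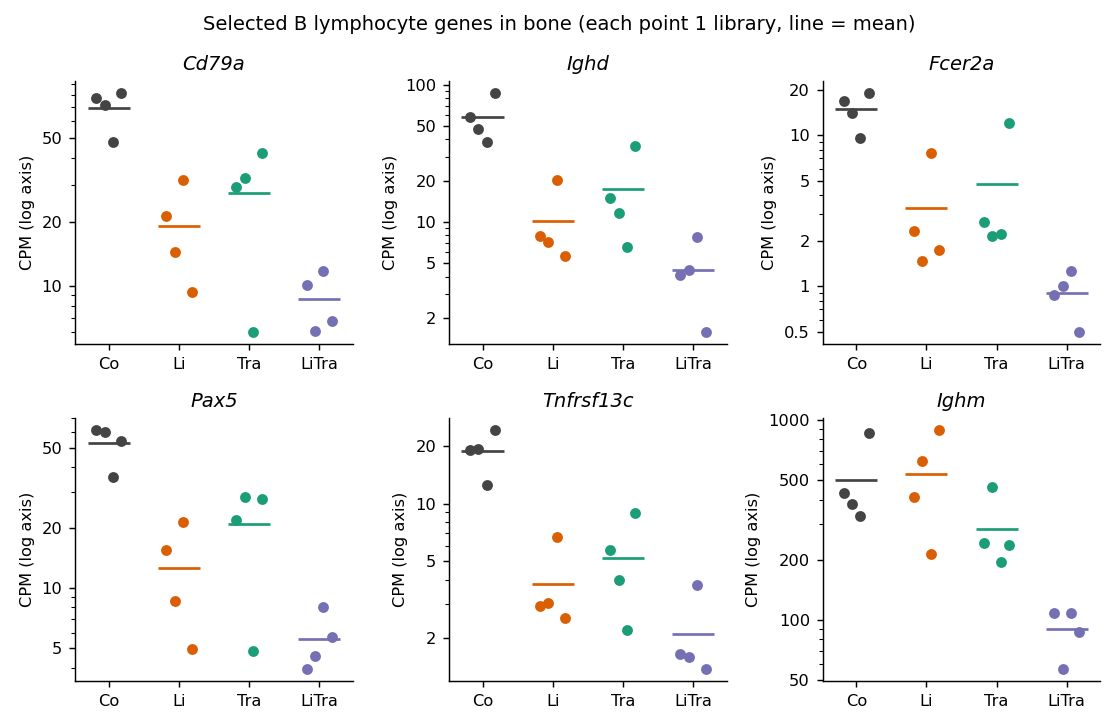
CPM (log axis) of 6 B lymphocyte genes in the 16 bone libraries, by group; each point is 1 library and each line a group mean. Cd79a, Ighd, Fcer2a, Pax5 and Tnfrsf13c are lower in Li and LiTra than in Co, while Ighm in Li spans 214 to 895 CPM and is 56.6 to 108 in LiTra.

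Of the 10 coreceptors and surface proteins, 8 fell in LiTra and 3 in Li, where 8.64% and 0.849% of all genes fell. Cd22, a sialic acid-binding inhibitory coreceptor, had the smallest p of all members in LiTra. Its levels were 45.8, 45.3, 31.7 and 51.8 CPM in Co, 13.5, 10.1, 4.08 and 25.1 in Tra, 7.92, 7.54, 18.1 and 6.49 in Li and 4.02, 3.93, 5.72 and 4.44 in LiTra. The groups did not overlap between Co and any treated group, and LiTra lay wholly below Li. Cd22 changed by -2.12 ± 0.44 (adjusted p = 0.019) in Li and -3.27 ± 0.47 (adjusted p = 0.00058) in LiTra. Fcer2a (ENSMUSG00000005540.11), the low-affinity IgE receptor CD23 of mature follicular cells, stood at 16.8, 14.1, 9.55 and 19.0 CPM in Co, 2.65, 2.16, 2.203 and 12.1 in Tra, 2.30, 1.47, 7.56 and 1.74 in Li and 0.878, 0.994, 1.25 and 0.495 in LiTra. Li 3 and Tra 4 stood far above their groups, and LiTra lay wholly below every other group. It had the largest decrease of the 31 in LiTra, -4.04 ± 0.69 (adjusted p = 0.0015), and did not pass in Li at -2.18 ± 0.64 (adjusted p = 0.079).

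Fcmr, the Fc receptor for IgM, stood at 20.1, 19.3, 10.2 and 28.2 CPM in Co, 4.50, 3.96, 1.74 and 10.6 in Tra, 3.16, 2.18, 7.12 and 1.60 in Li and 1.18, 1.13, 2.64 and 0.778 in LiTra. Tra 4 reached the level of Co 3, and all Li and LiTra libraries lay below Co. The changes of Fcmr were -2.46 ± 0.59 (adjusted p = 0.035) in Li and -3.76 ± 0.63 (adjusted p = 0.0014) in LiTra. Ms4a1, the gene of the CD20 antigen, ranged from 36.4 to 48.7 CPM in Co and 2.14 to 7.99 in LiTra, with changes of -2.24 ± 0.57 (adjusted p = 0.045) in Li and -3.25 ± 0.59 (adjusted p = 0.0022) in LiTra. Cr2, complement receptor CD21 of mature B cells, ranged from 4.92 to 8.18 CPM in Co and 0.490 to 0.717 in LiTra and changed by -3.58 ± 0.66 (adjusted p = 0.0022).

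Fcrla and Fcrl1, Fc receptor-like proteins of B cells, also fell in LiTra, with changes of -2.56 ± 0.51 (adjusted p = 0.0035) and -2.51 ± 0.55 (adjusted p = 0.0068). Cd37, a tetraspanin found on B cells and on other leukocytes, had 78.8 to 129 CPM in Co and 22.1 to 45.0 in LiTra and changed by -1.71 ± 0.43 (adjusted p = 0.015), a call lost without LiTra 2 (adjusted p = 0.051). The other 2 surface genes, Cd72 and Cd180, did not pass. Cd72, a coreceptor that inhibits receptor signalling, ranged over 44.3 to 70.0 CPM in Co, 16.8 to 43.7 in Tra, 34.2 to 40.3 in Li and 33.0 to 39.1 in LiTra, with changes of -0.65 ± 0.22 (adjusted p = 0.13), -0.80 ± 0.22 (adjusted p = 0.41) and -0.66 ± 0.22 (adjusted p = 0.053) for Li, Tra and LiTra. Its groups did not overlap with Co although no change passed. Cd180, a Toll-like receptor homologue of B cells and myeloid cells, had 10.7 to 19.9 CPM in Co and 6.05 to 9.96 in LiTra and changed by -1.12 ± 0.37 (adjusted p = 0.055) in LiTra.

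The 4 signalling genes split. Blk and Bank1, a Src-family kinase and a scaffold of the receptor pathway, fell with the receptor chains. Blk stood at 24.1, 19.9, 12.7 and 16.3 CPM in Co, 9.69, 12.5, 2.16 and 10.6 in Tra, 7.31, 5.14, 9.16 and 2.57 in Li and 4.02, 2.82, 3.03 and 2.23 in LiTra, and all Li, Tra and LiTra libraries lay below Co. Its changes were -1.59 ± 0.46 (adjusted p = 0.076) in Li and -2.60 ± 0.48 (adjusted p = 0.0022) in LiTra. Bank1 stood at 17.8, 14.4, 12.6 and 19.8 CPM in Co, 6.77, 6.50, 2.11 and 10.8 in Tra, 4.38, 3.24, 6.77 and 2.95 in Li and 2.16, 1.56, 4.92 and 2.77 in LiTra, again without overlap with Co. It changed by -1.90 ± 0.45 (adjusted p = 0.033) in Li and -2.50 ± 0.46 (adjusted p = 0.0022) in LiTra.

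Blnk, the adaptor that links the receptor to phospholipase C, stood at 28.1, 28.3, 17.9 and 29.4 CPM in Co, 23.2, 27.7, 17.0 and 27.4 in Tra, 14.5, 12.0, 20.2 and 18.9 in Li and 12.8, 13.8, 16.1 and 10.99 in LiTra. Only Tra 3 of the Tra libraries lay below the Co range, by a small margin, whereas all 4 LiTra libraries lay below it. Blnk changed in LiTra by -0.95 ± 0.21 (adjusted p = 0.0074), and its change in Tra was -0.12 ± 0.21 (adjusted p = 0.87). With pan-leukocyte transcripts as the scale its LiTra change turned to 0.17. Btk, a kinase of the receptor pathway that myeloid cells and platelets also use, ranged over 35.4 to 52.3 CPM in Co, 8.397 to 41.2 in Tra, 24.7 to 60.1 in Li and 25.1 to 37.004 in LiTra. It did not pass in Li (-0.17 ± 0.38, adjusted p = 0.87) or LiTra (-0.57 ± 0.38, adjusted p = 0.35, 95% interval -1.38 to 0.23).

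Of the 6 transcription factors 5 fell in LiTra and 2, Pax5 and Bach2, in Li, where 8.64% and 0.849% of all genes fell. Pax5 (ENSMUSG00000014030.16), which commits precursors to the B lineage, stood at 61.4, 59.8, 35.8 and 54.0 CPM in Co, 21.8, 28.4, 4.86 and 27.9 in Tra, 15.4, 8.62, 21.3 and 4.96 in Li and 3.95, 4.57, 8.03 and 5.69 in LiTra. The Li and LiTra libraries lay below every Co library, and the ranges of Li and LiTra overlapped. Pax5 changed by -2.07 ± 0.50 (adjusted p = 0.037) in Li and -3.24 ± 0.53 (adjusted p = 0.0012) in LiTra. Bach2, a repressor that keeps B cells from becoming plasma cells and that T cells also use, stood at 48.4, 47.4, 38.4 and 35.2 CPM in Co, 20.8, 27.0, 15.3 and 22.1 in Tra, 14.4, 13.0, 19.4 and 8.96 in Li and 18.8, 9.58, 10.8 and 12.1 in LiTra. Its Co libraries were tight, all treated libraries lay below them, and the LiTra and Li ranges overlapped. Bach2 changed by -1.60 ± 0.25 (adjusted p = 0.0049) in Li, -0.99 ± 0.25 (adjusted p = 0.41) in Tra and -1.73 ± 0.26 (adjusted p = 0.00074) in LiTra, and its calls in Li and LiTra were lost in 0 of 16 fits that left out 1 library.

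Pou2f2, the octamer-binding factor Oct-2, stood at 19.4, 24.4, 14.0 and 25.6 CPM in Co, 8.62, 10.9, 5.64 and 15.2 in Tra, 10.3, 7.67, 14.1 and 4.53 in Li and 2.70, 4.33, 3.83 and 5.80 in LiTra. All LiTra libraries lay below Co, whereas Tra 4 and Li 3 reached the level of Co 3. Pou2f2 changed by -1.19 ± 0.36 (adjusted p = 0.09) in Li and -2.32 ± 0.37 (adjusted p = 0.0011) in LiTra. Its coactivator Pou2af1 changed by -2.43 ± 0.46 (adjusted p = 0.0028) in LiTra and Spib, an ETS factor of B cells and plasmacytoid dendritic cells, by -3.02 ± 0.63 (adjusted p = 0.0048). Ebf1, an early B lineage factor that stromal and fat cells also express, stood at 43.8, 45.2, 27.5 and 35.2 CPM in Co, 33.2, 37.9, 14.5 and 36.3 in Tra, 20.9, 18.8, 25.5 and 28.5 in Li and 15.8, 22.9, 26.2 and 26.0 in LiTra. LiTra lay below Co by a small margin, Tra overlapped Co, and Ebf1 did not pass in Li (-0.70 ± 0.27, adjusted p = 0.18) or LiTra (-0.74 ± 0.27, adjusted p = 0.075).

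Survival and homing receptors and the class II modulators fell in LiTra for 4 of 4, where 8.64% of all genes fell. Tnfrsf13c, the receptor for the survival cytokine BAFF, stood at 19.0, 19.2, 12.5 and 24.3 CPM in Co, 5.77, 4.02, 2.203 and 8.93 in Tra, 2.95, 3.05, 6.72 and 2.53 in Li and 1.65, 1.59, 3.77 and 1.38 in LiTra. Every treated library lay below every Co library. Tnfrsf13c changed by -2.30 ± 0.46 (adjusted p = 0.015) in Li, -1.84 ± 0.45 (adjusted p = 0.41) in Tra and -3.16 ± 0.48 (adjusted p = 0.0008) in LiTra. Cxcr5, the receptor that guides B cells into follicles, stood at 8.33, 8.70, 3.07 and 9.48 CPM in Co, 1.80, 1.78, 1.79 and 6.19 in Tra, 1.71, 1.19, 3.93 and 0.969 in Li and 1.18, 1.48, 1.004 and 1.38 in LiTra. Co 3 was low within Co, Tra 4 and Li 3 reached above it, and LiTra lay wholly below Co. It changed by -1.92 ± 0.53 (adjusted p = 0.063) in Li and -2.55 ± 0.54 (adjusted p = 0.0057) in LiTra.

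H2-Ob and H2-Oa encode the chains of H2-O, which restrains peptide loading of class II molecules in B cells. H2-Ob stood at 35.3, 31.1, 24.3 and 39.5 CPM in Co, 13.8, 9.23, 4.45 and 21.7 in Tra, 7.93, 4.37, 13.8 and 4.53 in Li and 3.99, 3.20, 4.47 and 4.51 in LiTra. No treated library reached the Co range, and the changes were -2.08 ± 0.44 (adjusted p = 0.019) in Li and -3.01 ± 0.45 (adjusted p = 0.00079) in LiTra. H2-Oa stood at 4.65, 4.95, 4.78 and 6.51 CPM in Co, 2.09, 1.78, 0.321 and 4.002 in Tra, 1.57, 2.42, 2.86 and 0.672 in Li and 1.38, 1.23, 1.27 and 1.45 in LiTra. All treated libraries lay below Co at these low levels, and H2-Oa changed by -1.97 ± 0.55 (adjusted p = 0.025) in LiTra. That call was lost without Co 4 and without each of the 4 LiTra libraries in turn, with adjusted p from 0.053 to 0.072.

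Cd24a, Ly6d and Cd38 are surface genes that mark stages of B cells but are also expressed by other cells, keratinocytes included for the first 2. Cd24a, also high in red cell precursors, stood at 705, 512, 780.2 and 746 CPM in Co, 487, 544, 506 and 772 in Tra, 278, 307, 445 and 241 in Li and 488, 119.7, 99.7 and 115 in LiTra. LiTra 1, a library rich in nasal gland transcripts, stood apart from the other 3 LiTra libraries, just below the lowest Co library. All Li libraries lay below Co, and Tra overlapped it. Cd24a changed by -1.74 ± 0.44 (adjusted p = 0.014) in LiTra, a call lost without LiTra 2 (adjusted p = 0.052). Ly6d stood at 127, 24.8, 17.7 and 26.8 CPM in Co, 15.5, 12.0, 22.0 and 27.5 in Tra, 9.59, 13.4, 52.7 and 4.63 in Li and 20.9, 22.5, 11.1 and 10.4 in LiTra. Co 1 was far above the other Co libraries, the groups overlapped, and Ly6d changed by -1.59 ± 0.73 (adjusted p = 0.16) in LiTra. Cd38, an ectoenzyme also found on myeloid and T cells, stood at 21.2, 23.8, 21.6 and 23.4 CPM in Co, 12.3, 17.8, 14.2 and 17.1 in Tra, 27.6, 22.3, 17.8 and 12.5 in Li and 15.2, 21.2, 19.8 and 23.4 in LiTra. The Tra libraries lay below Co, the LiTra and Co ranges overlapped, and the LiTra change was -0.17 ± 0.21 (adjusted p = 0.65) with a 95% interval of -0.61 to 0.27.

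Ratios within a library do not depend on how libraries are scaled. They are not adjusted for gene length and are compared only between libraries. The ratio of Ighm to Cd79a counts was 5.35 to 10.5 in Co, 5.64 to 32.4 in Tra, 6.75 to 95.5 in Li and 9.17 to 12.8 in LiTra. It was high in Li 4 (95.5), Li 2 (43.3) and Tra 3 (32.4), and in Li 3 (6.75) it lay within the Co range. The plasma cell gene Jchain stood at 77.0, 61.8, 35.7 and 16.9 CPM in Li 4, Li 2, Li 1 and Li 3, the order of this ratio. In Tra 3 Jchain was at 39.5 CPM, below Tra 1 at 67.7, whose ratio was 8.20. The part of antibody-secreting cells in the ratio was not tested. Ighm to Ighd was 7.36 to 9.86 in Co, 6.59 to 40.1 in Tra, 10.6 to 159 in Li and 12.7 to 55.4 in LiTra. Every Li and LiTra library lay above the Co range, and Tra 4 lay below it.

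Genes of mature B cells were set against genes that the whole lineage shares. The first set was Fcer2a, Cr2, Ighd, Cxcr5, Tnfrsf13c, Fcmr, Ms4a1 and Cd22, and the second Cd79a, Cd79b, Pax5, Blk, Blnk, Pou2af1, Spib and Fcrla. Blnk stood at 26.0 CPM in Co bone and 26.6 in Co gingiva, where Cd79a was at 0.256. Its LiTra mean in bone was 51.8% of Co, and the next highest of the second set was 18.6% for Pou2af1. Blnk thus lessens the fall of the second set, and how much of the difference between the sets rests on it was not tested. In LiTra the median log2 change was -3.42 for the first and -2.70 for the second, and 8 of 8 fell in each. In Li these were -2.21 with 5 of 8 falling and -1.79 with 3 of 8. Of all genes 8.64% fell in LiTra and 0.849% in Li. The mean log2 CPM of the first minus that of the second was -1.12 to -0.63 in Co, -2.46 to -0.87 in Tra, -1.97 to -1.10 in Li and -2.17 to -1.53 in LiTra. All 4 LiTra libraries lay below all 4 Co libraries, while Li 3, Tra 3 and Tra 4 lay within the range of Co.

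**Figure D4:**
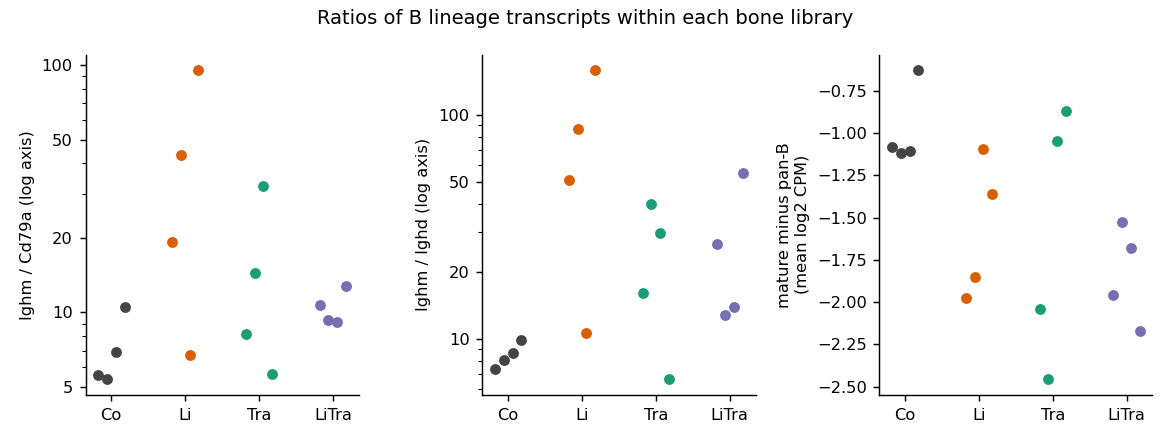
Ratio of Ighm to Cd79a (left) and of Ighm to Ighd (middle) on log axes, and mean log2 CPM of 8 mature B cell genes minus that of 8 pan-B genes (right), in each of 16 bone libraries by group. Ighm to Ighd is 7.36 to 9.86 in Co and 10.6 to 159 in Li, and the mature minus pan-B difference is lower in LiTra than in Co in all 4 libraries.

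The combined group was also compared with each single treatment. Against Tra, 6 of 31 genes fell in LiTra and 0 rose, where 2.49% of all genes fell and 3.07% rose. They were Ighm (-1.66 ± 0.43, adjusted p = 0.036), Fcer2a (-2.40 ± 0.65, adjusted p = 0.044), Blnk (-0.83 ± 0.21, adjusted p = 0.034), Pax5 (-1.90 ± 0.50, adjusted p = 0.04), Pou2af1 (-1.65 ± 0.45, adjusted p = 0.046) and H2-Ob (-1.61 ± 0.43, adjusted p = 0.043). The count was 19 without Tra 3, 2 without any of Co 1, Co 2, Li 1, LiTra 1 and LiTra 3, 1 without any of Co 4, Tra 1 and Tra 2, and 0 without any of Tra 4, LiTra 2 and LiTra 4. Against Li, 0 of 31 passed in edgeR, as did 0% of all genes. There 10 members had an unadjusted p under 0.05, as did 6.38% of all genes. DESeq2 called 1 (Ighm), where it called 0.519% of all genes with an adjusted p, and limma-voom 0. A negative log2 change was found for 31 of 31 with a median of -0.90, beside 50% of all genes and a median of 0.00027. Ighm differed most from Li, at -2.57 ± 0.44 (adjusted p = 0.36), and its LiTra libraries lay wholly below the Li libraries, as did those of Cd22, Cr2 and Fcer2a (4 of 31, where 2.81% of all genes did so).

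The interaction asks whether the ligature had another effect in overloaded teeth than in others. In edgeR 0 of 31 genes and 0% of all genes passed, with 3 members and 3.04% of all genes at an unadjusted p under 0.05, and DESeq2 and limma-voom called 0. The median over members was 0.43. Ighm had the lowest interaction, -1.75 ± 0.60 (adjusted p = 1), with a 95% interval of -3.03 to -0.48, and Bach2 was at 0.87 ± 0.35 (adjusted p = 1) with 0.11 to 1.63. These intervals are wide.

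Further genes of the receptor pathway went both ways. Of 22 listed signalling genes outside the list, 6 fell and 3 rose in bone of LiTra, where 8.64% and 8.29% of all genes did. Siglecg, an inhibitory lectin of B cells, changed by -2.78 ± 0.50 (adjusted p = 0.002) in LiTra. Pik3cd, a catalytic subunit of phosphoinositide 3-kinase in leukocytes, changed by -1.22 ± 0.34 (adjusted p = 0.025). Of those that rose, Nfatc1, a transcription factor of antigen receptor signalling and of osteoclasts, changed by 0.72 ± 0.19 (adjusted p = 0.019) and Rasgrp3, an activator of Ras, by 0.78 ± 0.21 (adjusted p = 0.019).

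Of 12 tested genes for the survival, retention and homing of B cells, 5 fell in LiTra and 0 rose. Of all genes 8.64% fell and 8.29% rose. Tnfsf13b, which encodes the BAFF cytokine, changed by -2.07 ± 0.35 (adjusted p = 0.0014) in LiTra and -1.49 ± 0.35 (adjusted p = 0.021) against Tra. Cxcl12, the stromal chemokine that holds B cell precursors in marrow, changed by -1.69 ± 0.30 (adjusted p = 0.0019) in LiTra and -1.17 ± 0.30 (adjusted p = 0.046) in Li. Ltb, a cytokine of lymphocytes, changed by -2.36 ± 0.48 (adjusted p = 0.0043) in LiTra. Of 7 tested stromal and venule genes of lymphoid tissue 0 passed in LiTra in edgeR, 0 had an unadjusted p under 0.05, and DESeq2 and limma-voom called 0 and 0.

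Of 12 genes of B cell precursors, 3 fell in LiTra, where 8.64% of all genes fell (Vpreb3 -2.23 ± 0.44, Il7r -1.52 ± 0.38 and Lef1 -1.92 ± 0.54) and 0 in Li, where 2 of 12 and 17.1% of all genes had an unadjusted p under 0.05 and DESeq2 and limma-voom called 2 each. The summed level of the 12 genes was 196 to 301 CPM in Co, 115 to 287 in Tra, 200.4 to 285 in Li and 178 to 256 in LiTra, ranges that overlapped. In gingiva, where many B lymphocyte genes were barely detected, the same sum was 52.7 to 68.0 CPM in Co and 104 to 185 in Li. The sum is therefore not a measure of B cell precursors alone. Of 10 further transcription factors of the lineage 7 fell in LiTra, among them Ikzf3 (-2.85 ± 0.44, adjusted p = 0.00086), which also changed in Li (-1.83 ± 0.42, adjusted p = 0.029), and the E2A gene Tcf3 (-0.91 ± 0.17, adjusted p = 0.003).

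Immunoglobulin constant genes other than Ighm and Ighd fell in LiTra for 3 of 9, where 8.64% of all genes fell. The summed level of the 9 was 251 to 478 CPM in Co and 65.7 to 212 in LiTra. Igkc, the kappa light chain, ranged over 116 to 340.3 CPM in Co, 85.1 to 338 in Li and 43.5 to 84.5 in LiTra and changed by -1.73 ± 0.50 (adjusted p = 0.03). The lambda genes Iglc2 (-2.65 ± 0.43) and Iglc3 (-2.74 ± 0.64) are near-identical copies, so their split is uncertain. Of 10 plasma cell genes, 3 rose and 2 fell in LiTra, where 8.29% of all genes rose and 8.64% fell. The summed level of the 10 was 309 to 691 CPM in Co, 323 to 816 in Tra, 494 to 622 in Li and 539.9 to 874 in LiTra, ranges that overlapped. Jchain, which joins IgA and IgM chains, ranged over 24.8 to 59.5 CPM in Co, 16.9 to 77.0 in Li and 6.91 to 17.4 in LiTra and changed by -1.57 ± 0.49 (adjusted p = 0.04), and Mzb1, a chaperone of antibody-secreting cells, by -2.31 ± 0.35 (adjusted p = 0.00079). Sdc1 and Prdm1, which epithelial and stromal or myeloid cells also express, rose by 1.81 ± 0.20 and 1.54 ± 0.27.

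Genes of other blood cells also fell in bone of LiTra. There 13 of 14 red cell precursor genes and 12 of 19 T and NK cell genes fell. So did 6 of 13 neutrophil precursor genes and 2 of 10 pan-leukocyte genes, and 0 genes of these 4 lists rose. Of all genes 8.64% fell and 8.29% rose there. The summed red cell list was 23312 to 46160.2 CPM in Co, 14696 to 44836 in Tra, 7251 to 20809 in Li and 2045 to 6329.9 in LiTra. For the T and NK list the sums were 67.4 to 121, 36.6 to 101, 52.5 to 67.5 and 34.2 to 54.1 CPM, for neutrophil precursors 8488 to 11009.8, 2055 to 7378, 2809 to 10447 and 2079 to 4679, and for the pan-leukocyte list 1671 to 2421, 391 to 1670.1, 784 to 2288 and 699 to 1240.0, in the same order of groups. In Li, 0 genes of the 4 lists passed in edgeR, where 0.849% of all genes fell and 2.66% rose. An unadjusted p under 0.05 was found for 11 of 14 red cell and 11 of 19 T and NK cell genes. It was found for 1 of 13 neutrophil precursor genes, 1 of 10 pan-leukocyte genes and 17.1% of all genes. The sums of these last 2 lists overlapped between Li and Co. DESeq2 and limma-voom called 5 and 4 red cell and 4 and 4 T and NK cell genes in Li. The macrophage list summed to 2466 to 3195 CPM in Co bone and 1418 to 2413 in LiTra bone. For the dendritic cell list the sums were 242 to 322 and 205 to 255 CPM. None of the genes of the red cell, T and NK cell, neutrophil precursor and pan-leukocyte lists with a row was at 0 in all 4 libraries of a bone group. The part of these cells in the B lymphocyte result was not tested.

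B lymphocyte genes were also low relative to leukocyte genes. The summed level of the 8 pan-B genes per 100 CPM of the 10 pan-leukocyte genes was 15.1 to 19.2 in Co, 10.99 to 14.6 in Tra, 4.94 to 13.2 in Li and 4.14 to 8.49 in LiTra. Every treated library lay below every Co library, and Li 3, at 13.2, stood apart within Li. With the pan-leukocyte genes as the scale of the libraries, 15 of 31 genes fell in LiTra and 0 in Li. The members' medians were then -1.41 and -1.05, while the median of all genes moved to 1.08 and 0.64. The share of all genes falling at this scale is not given here, and the shares at the TMM scale do not carry over to it.

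In gingiva many B lymphocyte genes were barely detected. The mean level in Co gingiva was under 1 CPM for 16 of 31, and in the fit of all 32 libraries 28 of 31 were higher in Co bone than in Co gingiva, where 27.2% of all genes were higher and 26.4% lower. With pan-leukocyte scaling the log2 differences of Cd72, Cd180, Blk, Ebf1, Pou2f2, Bach2, H2-Oa and Cd38 were negative instead. These are changes of sign, and whether they passed at that scale is not given here. Cd79a was at 69.6 ± 16.5 CPM in Co bone and 0.256 ± 0.415 in Co gingiva (SD, n = 4), and Pax5 differed by 8.86 ± 1.36 (adjusted p = 4.2e-06). Ly6d was the 1 member lower in bone, at -4.28 ± 0.61 (adjusted p = 1.6e-06), and Blnk (-0.03 ± 0.25, adjusted p = 0.92) and Cd24a (-0.12 ± 0.35, adjusted p = 0.8) did not pass.

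A single gingiva library stood apart. Li 1 was highest of its group for 21 of 31 members, and its lineage genes were many times those of the other Li libraries. Cd79a stood at 0, 0.0958, 0.863 and 0.0529 CPM in Co, 0.295, 0, 0.0868 and 0 in Tra, 4.82, 0.233, 0 and 0.178 in Li and 0, 0.138, 0 and 0.275 in LiTra. Pax5, Pou2af1 and Ighm in Li 1 were at 3.52, 4.54 and 30.2 CPM, beside at most 0.212, 0.552 and 7.70 in the other Li libraries. Genes of other tissues were high in the same library. Its summed levels were 2543 CPM for red cell precursors, 1109 for neutrophil precursors and 917 for nasal glands. In Li 2, Li 3 and Li 4 the red cell sum was 730.2, 447 and 809 CPM, the neutrophil precursor sum 339, 96.3 and 171 and the nasal gland sum 35.0, 109 and 45.9. Their part in the B lymphocyte levels of Li 1 was not tested. Ms4a1 had 0 counts in all 4 LiTra libraries, where 3 counts would be 0.0688 to 0.0760 CPM, and Pou2af1 had 0 in all 4 Tra libraries.

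The members that rose in gingiva are also expressed by myeloid cells. In Li, 3 of the 29 tested rose and 0 fell, where 5.19% of all genes rose and 2.30% fell. Btk stood at 1.38, 1.75, 1.34 and 1.85 CPM in Co and 12.5, 10.99, 4.30 and 4.38 in Li, without overlap, and changed by 2.34 ± 0.37 (adjusted p = 0.0034). Cd37 stood at 3.16, 6.11, 3.38 and 4.23 CPM in Co and 18.3, 18.6, 7.49 and 5.82 in Li, where Li 4 overlapped Co, and changed by 1.57 ± 0.41 (adjusted p = 0.031). Cd38 changed by 1.66 ± 0.48 (adjusted p = 0.047). In the same Li libraries 7 of 12 macrophage genes and 3 of 10 pan-leukocyte genes rose, with pan-leukocyte sums of 619.8, 665, 217 and 197 CPM beside 124 to 229 in Co. The number rising was 1 without any of Co 1, Co 3, Co 4, Li 1 and Li 2 and 5 without Li 3 or Li 4. In Tra, 0 of 29 passed in edgeR, DESeq2 and limma-voom, and 2 had an unadjusted p under 0.05, as did 6.57% of all genes. In LiTra the same 3 rose, Btk by 2.29 ± 0.37 (adjusted p = 0.0011), Cd37 by 1.48 ± 0.41 (adjusted p = 0.017) and Cd38 by 1.77 ± 0.48 (adjusted p = 0.016), where 11.4% of all genes rose. With pan-leukocyte scaling the Cd37 change in LiTra was -0.02. Li and LiTra share the Co libraries.

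Blnk, Cd24a, Fcer2a, Ly6d and Tnfrsf13c fell in gingiva of LiTra, 5 of 29, where 11.5% of all genes fell. Blnk stood at 26.0, 19.6, 28.7 and 31.6 CPM in Co and 11.6, 7.41, 11.5 and 8.69 in LiTra, without overlap, and changed by -1.44 ± 0.27 (adjusted p = 0.0023). In the same Co libraries Cd79a was at 0 to 0.863 CPM, and which cells of gingiva express Blnk was not tested. Ly6d stood at 975, 951, 914 and 1032 CPM in Co and 721, 779, 693 and 688 in LiTra and changed by -0.43 ± 0.13 (adjusted p = 0.033), and Cd24a by -0.76 ± 0.20 (adjusted p = 0.014). The last 2 are also genes of keratinocytes, and of 8 listed epithelial genes (keratins and loricrin) 5 were lower and 1 higher in LiTra. Their summed level was 70423 to 90114 CPM in Co and 51451 to 64782 in LiTra. The part of the epithelium in these changes was not tested. Tnfrsf13c, at 0.0729, 0.527, 0.791 and 1.19 CPM in Co and 0.101, 0, 0.0947 and 0.0917 in LiTra, changed by -3.12 ± 0.97 (adjusted p = 0.031). Fcer2a held 40 counts over the 4 Co libraries and 3 over the 4 LiTra libraries (adjusted p = 0.023), 7.22% of Co with an exact 95% counting interval of 1.43% to 22.7%. The number called in LiTra, 8 in all, was 4 without Co 3 and 5 without any of Co 1, Co 4, LiTra 3 and LiTra 4.

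Leukocyte genes rose in the same gingiva libraries. In LiTra, 9 of 10 pan-leukocyte genes, 9 of 12 macrophage genes and 14 of 22 signalling genes of the receptor pathway rose, the last including Syk (1.44 ± 0.28), Lyn (1.91 ± 0.34) and Fcgr2b (2.41 ± 0.42), which macrophages also express. Of all genes 11.4% rose there. The pan-leukocyte sum was 124 to 229 CPM in Co and 383 to 600.4 in LiTra, and the macrophage sum 262 to 338 in Co and 780.2 to 1245 in LiTra. The part of these cells in the members that rose was not tested. Cd72, which rose against Tra by 1.21 ± 0.39 (adjusted p = 0.043), and Cd180, at 1.21 ± 0.40 (adjusted p = 0.045), were among 5 members higher and 4 lower in LiTra than in Tra (9.36% and 9.44% of all genes), and both turned negative with pan-leukocyte scaling. The count of 9 was 5 without any of Tra 1, LiTra 2, LiTra 3 and LiTra 4. Against Li, 0 of 29 passed in edgeR, where 0.0844% of all genes did, and 6 of 29 had an unadjusted p under 0.05, as did 18.5% of all genes. DESeq2 and limma-voom called 1 each, beside 9.51% and 4.27% of all genes with an adjusted p.

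**Figure D5:**
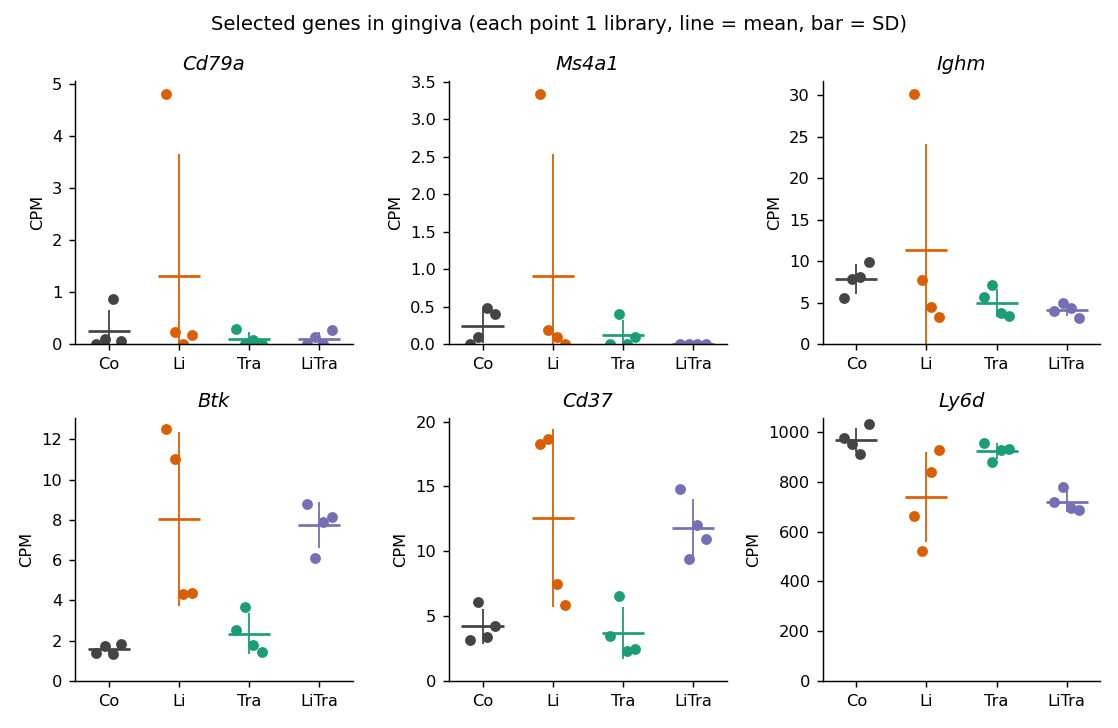
CPM of 6 genes in the 16 gingiva libraries by group; each point is 1 library, the line the mean and the bar the SD. Cd79a, Ms4a1 and Ighm are high in Li 1 alone of the Li libraries, the means of Btk and Cd37 are higher in Li and LiTra than in Co, and Ly6d is 914 to 1032 CPM in Co and 688 to 779 in LiTra.

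The effect of treatment differed between the tissues for part of the list. For LiTra against Co the bone change was lower than the gingiva change for 14 of 31 members and higher for 0, where 6.68% of all genes were lower and 5.59% higher. The largest such differences were those of Fcmr (-5.30 ± 1.05, adjusted p = 0.0024), Cxcr5 (-4.63 ± 1.37, adjusted p = 0.026) and Spib (-4.46 ± 1.17, adjusted p = 0.013), and Btk differed by -2.85 ± 0.55 (adjusted p = 0.0022). Fcmr stood at 0, 0.407, 0.815 and 0.317 CPM in Co gingiva and 1.14, 1.26, 0.545 and 1.58 in LiTra gingiva. Cxcr5 stood at 0, 0.0958, 0.0719 and 0.185 and 0.735, 0.345, 0.213 and 0.229 there. Spib stood at 0, 0.311, 0.527 and 0.741 in Co gingiva, 1.04, 0.828, 1.23 and 1.21 in LiTra gingiva and 5.07, 2.31, 0.195 and 0.0889 in Li gingiva, so the differences of all 3 genes rest on few counts in gingiva. For Li against Co, 4 of 31 were lower in bone and 0 higher, where 0.683% of all genes were lower and 1.36% higher: Spib (-4.31 ± 1.15, adjusted p = 0.047), Cd37 (-2.53 ± 0.62, adjusted p = 0.032), Btk (-2.51 ± 0.55, adjusted p = 0.018) and Bach2 (-1.37 ± 0.36, adjusted p = 0.043). The count of 14 was 9 without gingiva Co 1. The count of 4 was 0 without gingiva Li 2, 1 without any of bone Co 2, Co 4, Li 2 and Li 4 and gingiva Co 1, Co 4 and Li 1, 2 without any of bone Co 1, Tra 1, LiTra 3, LiTra 4 and Li 1 and gingiva Co 2, LiTra 1, LiTra 3 and LiTra 4, 10 without bone Tra 3, and 11 without gingiva Li 3 or Li 4. With pan-leukocyte scaling the LiTra differences of Cd72, Cd180, Pou2f2, Bach2 and Cd38 and the Li difference of Bach2 turned positive.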

How the data were processed

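RNA of bone and gingiva was measured in 32 libraries, 4 for each of 4 groups and 2 tissues. The authors deposited 1 table per tissue of estimated counts per Ensembl gene. Per the submitters' processing notes, reads were trimmed with Trimmomatic 0.39, checked with FastQC 0.11.9, aligned with HISAT2 2.2.1 to GRCm39 and quantified with StringTie 2.1.7, and DESeq2 1.32.0 was used. How strand, overlapping genes and multiply mapped reads were counted is not given in the sources used here. The deposited estimated counts are whole numbers and were used as they stand. Columns named CR were taken as the Tra group, whose teeth received composite resin. Of 55359 gene identifiers 52083 carry a symbol.

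From these counts, genes were filtered with filterByExpr (at least 10 counts, at least 15 in total), scaled by TMM and tested with edgeR 4.0.16 (glmQLFit, glmQLFTest; R 4.3.3), 1 fit of 16 libraries per tissue and 1 of all 32 libraries (22559 genes) for differences between tissues. SE is the fold change over the square root of F. Alternatives used limma 3.58.1, DESeq2 1.42.0, other scalings and filters, a replicate block and left-out libraries. Tests were checked on simulated counts for Li against Co, with genes drawn independently of each other. That check does not cover shifts of a whole library, such as those with many nasal gland transcripts. Values in every library are given for up to 3 genes per role with the smallest p in bone of LiTra, and for Ighm and Ebf1. Other genes come from 16 lists, named by up to 4 genes with the smallest p, of which some in the receptor pathway list are not reported here. The members and lists were chosen with earlier results of these data known. Intervals and floors from counts cover counting error only. Promoter letters are RefSeq's.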

Additional observations from a re-analysis of the deposited data

Results flagged for a closer look

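Of 246 sets of 4 libraries (a B lymphocyte gene in a group of a tissue), 34 held a library whose distance to the nearest of the others was most of the range of the set. Chance gives about 1 in 20 such sets where values are normally distributed. Levels in CPM need not be, and a set whose other libraries are all at 0 is always flagged. That rate therefore does not apply to sets near 0, and genes of 1 library are not independent.

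In gingiva Li 1 stood high for Cd79a (4.82 CPM beside 0 to 0.233), Cd79b (6.02 CPM beside 0.0976 to 0.552), Ighm (30.2 CPM beside 3.24 to 7.70), Ighd (2.95 CPM beside 0.340 to 0.3905), Ms4a1 (3.35 CPM beside 0 to 0.191), Cr2 (0.524 CPM beside 0 to 0), Fcrla (1.95 CPM beside 0.0976 to 0.297), Pax5 (3.52 CPM beside 0 to 0.212), Pou2af1 (4.54 CPM beside 0.156 to 0.552) and Tnfrsf13c (1.42 CPM beside 0.178 to 0.361). Cr2 and Pax5 did not pass the filter on low counts in gingiva. Each range is that of the other 3 libraries of the group.

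In bone Li 3 stood high for Ighd (20.2 CPM beside 5.64 to 7.97), Cd22 (18.1 CPM beside 6.49 to 7.92), Fcer2a (7.56 CPM beside 1.47 to 2.30) and Tnfrsf13c (6.72 CPM beside 2.53 to 3.05). Bone Tra 4 stood high for Cr2 (6.85 CPM beside 0.597 to 1.65), Fcer2a (12.1 CPM beside 2.16 to 2.65) and Cxcr5 (6.19 CPM beside 1.78 to 1.80). All 7 of these belong to the mature B cell genes. Bone LiTra 3 stood high for Fcrla (7.09 CPM beside 2.33 to 3.11) and Tnfrsf13c (3.77 CPM beside 1.38 to 1.65). Bone Co 3 stood low for Cd37 (78.8 CPM beside 122 to 129) and Blnk (17.9 CPM beside 28.1 to 29.4), and bone Tra 3 for Btk (8.40 CPM beside 37.6 to 41.2). Single genes stood high in bone Co 4 for H2-Oa (6.51 CPM beside 4.65 to 4.95), in LiTra 1 for Cd24a (488 CPM beside 99.7 to 119.7) and in Co 1 for Ly6d (127 CPM beside 17.7 to 26.8).

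The other gingiva sets were Cd79a (0.863 CPM beside 0 to 0.0958) and Cr2 (0.312 CPM beside 0 to 0) in Co 3, Cd24a (979 CPM beside 647 to 679) in Co 1, Cd79b (0.776 CPM beside 0.148 to 0.188) in Tra 2, Pax5 (0.456 CPM beside 0 to 0) and Cxcr5 (0.0868 CPM beside 0 to 0) in Tra 3, Cr2 (0.0688 CPM beside 0 to 0) in LiTra 4, Fcer2a (0.0760 CPM beside 0 to 0) in LiTra 1 and Tnfrsf13c (0 CPM beside 0.0917 to 0.101) in LiTra 2. All but Cd24a are levels under 1 CPM.

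The test of the difference between the tissues passed for 18 effects in edgeR over all genes. As bone change minus gingiva change on the log2 scale, the differences for Li were Cd37 -2.53, Btk -2.51, Spib -4.31 and Bach2 -1.37. For LiTra they were Cd22 -3.13, Cd72 -1.57, Fcmr -5.30, Cd180 -2.03, Cd37 -3.18, Blk -2.78, Btk -2.85, Bank1 -2.46, Spib -4.46, Pou2f2 -2.10, Bach2 -1.13, Cxcr5 -4.63, H2-Ob -3.205 and Cd38 -1.93. Of these 18, the Li value of Bach2 and the LiTra values of Cd72, Cd180, Pou2f2, Bach2 and Cd38 changed sign with pan-leukocyte transcripts as the scale.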

How the results depend on the processing

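Counts are of B lymphocyte genes called. A setting can also change the share of all genes called, which is not given here for most settings. For Li in bone 0.849% of all genes were lower in edgeR and 4.08% in DESeq2. A shift in a count is therefore not by itself a result about these genes. Scaling by DESeq2's size factors kept every count within 1.5 times of the TMM value. Library totals gave 0 in bone for Li (11 with TMM), LiTra (25) and LiTra against Tra (6), and 0 for both tissue differences (4 for Li, 14 for LiTra). Pan-leukocyte scaling gave 0 for Li, 15 for LiTra and 0 for LiTra against Tra in bone, 0 for Li in gingiva (3 with TMM), and 0 and 6 for the tissue differences, of which 5 were higher in bone. No filter gave 5 for Li and 0 for LiTra against Tra in bone, 1 for Li and 5 for LiTra against Tra in gingiva (3 and 9 with the filter), and 1 for the Li tissue difference. A CPM over 1 in at least 4 libraries gave 11 for LiTra against Tra and 7 for the Li tissue difference. DESeq2 gave 23 for Li, 4 for Tra, 1 for LiTra against Li and 20 for LiTra against Tra in bone, 5 for Li and 1 for LiTra against Li in gingiva, and 15 for the Li tissue difference. Limma-voom gave 25 for Li and 20 for LiTra against Tra in bone, and 1 each for Li and LiTra against Li in gingiva. An adjusted p under 0.01 gave 1 for Li and 0 for LiTra against Tra in bone, 1 for Li, 2 for LiTra and 2 for LiTra against Tra in gingiva, and 0 and 5 for the tissue differences. Fits of only the compared groups gave 1 for LiTra against Tra in bone and 1 for Li in gingiva. Without the 3 bone libraries richest in nasal gland transcripts the counts were 24 for Li, 18 for LiTra against Tra and 11 for the Li tissue difference. The cause of these shifts was not tested.

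Leaving out 1 library, the counts ran in bone from 1 to 20 for Li, from 22 to 28 for LiTra and from 0 to 19 for LiTra against Tra, and stayed 0 for Tra, LiTra against Li and the interaction. In gingiva they ran from 1 to 5 for Li, from 4 to 9 for LiTra and from 5 to 9 for LiTra against Tra. For the tissue differences they ran from 0 to 11 for Li and from 9 to 15 for LiTra. The replicate block gave 4 for Li, 24 for LiTra and 0 for LiTra against Tra in bone. In bone 6 of 24 same-numbered pairs correlated above 0.1, beside 31 of 72 pairs with different numbers. In gingiva 6 of 24 did, beside 23 of 72, so the numbers are not shown to pair libraries within a tissue. Across tissues 7 of 16 did, beside 9 of 48, with medians of 0.0565 and -0.0126. A pairing of same-numbered bone and gingiva libraries therefore remains possible, and the main tests of the tissue differences did not use one.

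Every change of sign of a value called under either setting came with pan-leukocyte scaling, where Blnk in bone of LiTra was 0.17. In gingiva LiTra against Co, Cd37 was -0.024, Blk -1.36 and H2-Ob -1.31. In gingiva LiTra against Tra, Cd72 was -0.29, Cd180 -0.32, Pou2f2 -1.14 and H2-Ob -1.36. The tissue difference was 0.31 for Bach2 in Li, and in LiTra 0.94 for Cd72, 0.43 for Cd180, 2.16 for Ebf1, 0.41 for Pou2f2, 1.57 for Bach2, 2.57 for Tnfrsf13c and 0.69 for Cd38. Between Co bone and Co gingiva it was -0.87 for Cd72, -0.14 for Cd180, -0.44 for Blk, -1.78 for Ebf1, -0.50 for Pou2f2, -0.56 for Bach2, -1.46 for H2-Oa and -1.39 for Cd38. In gingiva, counts of a few reads limit the lineage genes.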
